A study of Mus musculus with 158 samples.

Results

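The chromatin of 10 genes that run or mark the mouse pluripotent state was examined: Pou5f1, Sox2, Nanog, Klf4, Esrrb, Zfp42, Prdm14, Lin28a, Dppa3 and Tdgf1. They are 10 of 21728 protein-coding genes, and were taken as a fixed list of names. At each locus, every DNase-seq hotspot of mouse embryonic stem cells (mESCs) that touched the gene body or its 20 kb flanks was followed into adult tissue. For Sox2 the flanks were 130 kb, so that its distal downstream region was included. This gave 131 of the 115211 mESC hotspots on autosomes and X, together with 77 of 97980 hotspots of mESC CTCF ChIP-seq. A hotspot is a stretch of the genome where the density of DNase I cleavages, or of ChIP-seq reads, exceeds the local background at a false discovery rate (FDR) of 5%. Its score is the −log10 of that FDR, capped at 100.

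The adult data were 20 DNase-seq hotspot sets, 1 for each pairing of 4 tissues (liver, kidney, lung and B cells) with 5 F1 hybrids, B6x129, B6xC3H, B6xCAST, B6xPWK and B6xSPRET. Every hybrid had a C57BL/6J (B6) mother and a father of the other strain or species named, so the B6 genome was shared by all samples. Mice were 8 weeks old, solid tissues were typically pooled from 4 animals, and B cells were purified from bone marrow by depletion of cells carrying CD43 or CD11b. The mESCs were labelled B6xCAST and were grown on gelatin with LIF. Their medium was mostly 2i medium, whose inhibitors favour naive pluripotency, mixed with a smaller part of medium containing serum. Replicate libraries had been pooled within each hybrid and tissue, so that the 5 hybrids repeat each tissue. For mESCs, 1 DNase-seq set and 1 CTCF set were used, without a replicate set. The labels list 2 mESC DNase-seq samples, and whether the set draws on 1 or both of them was not established. The hotspot files give no read depth. The liver sets held 211762 to 295565 hotspots, each set covering at least 78.4 Mb, kidney sets covered 63.6 to 85.2 Mb, lung sets 43.8 to 97 Mb, and B cell sets, the smallest, 78387 to 156078 hotspots over 29 to 68.7 Mb. Throughout, "mESC only" means that no hotspot of any adult set shared a base with the mESC hotspot at this threshold, and "persisting" means that at least 1 did. An uncalled site can still hold weaker accessibility, in mESCs as in adult tissue. By the study's own measure, a smaller part of the mESC DNase-seq reads fell within hypersensitive sites than in the adult samples on average.

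Pluripotent cells of the early embryo, and the mESCs derived from them, are maintained by a small circuit of transcription factors that bind each other's enhancers. OCT4, the product of Pou5f1, pairs with SOX2 on composite DNA elements. NANOG, ESRRB, KLF4 and PRDM14 bind nearby and stabilise the circuit. Zfp42 (REX1), Dppa3 (STELLA), the RNA-binding protein gene Lin28a and the NODAL co-receptor gene Tdgf1 (CRIPTO) lie downstream and are classic markers of the state. In most adult lineages the circuit is silent, whereas Sox2, Klf4 and Esrrb have further roles in differentiated tissues.

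The labelled cell types were checked at marker promoters. All 7 mESC marker genes, with Tdgf1 and Zfp42 among them, had an mESC hotspot within 1 kb of a transcript start, and the 4 markers each of liver, kidney, lung and B cells had one in all 5 sets of their own tissue. Many of these promoters were open elsewhere as well. Of the mESC markers, Dppa5a had a hotspot in no adult set and Nr0b1 and Zfp42 in 2 each, but Utf1, Tdgf1, Fgf4 and Tfcp2l1 had one in 15, 18, 19 and 20 of the 20 sets. The liver marker Alb had a hotspot in all 5 kidney and all 5 lung sets, and the B cell marker Pax5 in all 20 sets and in mESCs. Promoters of the endothelial genes Pecam1 and Cdh5 carried a hotspot in 19 and 20 of the 20 adult sets, all 5 B cell sets included, and that of the B cell gene Cd79a in 4 of 5 lung sets. In mESCs the promoters of 3 of 3 fibroblast genes carried a hotspot, as did 4 of 5 endoderm, mesoderm and trophoblast genes, the macrophage gene Cd68, the T cell gene Cd3e, the liver gene Apoa1 and the B cell gene Cd79b, and neither endothelial gene did. Over all protein-coding genes, 68.4% had an mESC hotspot within 1 kb of a start. The part of mixed cell types in the results was not tested, and in bulk tissue a site open in few cells cannot be told apart from a site weakly open in many.

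Of the 131 mESC hotspots at these loci, 60 (45.8%) were mESC only and 71 (54.2%) persisted. The background was lower: 30.5% of all mESC hotspots, and 26.2% of those within 20 kb of any protein-coding gene, were mESC only. The share was carried by a few loci. It was 81% at Pou5f1 (17 of 21), 63.6% at Zfp42 (14 of 22), 60% at Prdm14 (6 of 10), 50% at Nanog (3 of 6), 40% at Lin28a (2 of 5), 35.7% at Sox2 (10 of 28, or 7.14%, 1 of 14, with 20 kb flanks as for the other genes), 23.8% at Esrrb (5 of 21), 22.2% at Dppa3 (2 of 9), 20% at Tdgf1 (1 of 5) and 0% at Klf4 (0 of 4). Without Pou5f1 and Zfp42 the share fell to 33% (29 of 88), close to the background. Hotspots of 1 locus adjoin each other and are not independent, and the mESC side has no replicate set, so no test was made.

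**Figure D1:**
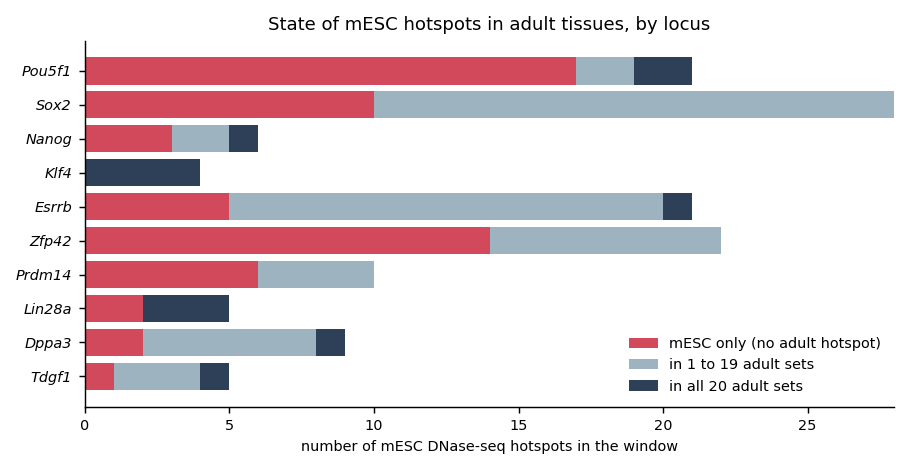
Number of mESC DNase-seq hotspots in the window of each gene (x axis), divided into hotspots without an adult hotspot (red), with a hotspot in 1 to 19 of the 20 adult sets (grey) and in all 20 sets (dark). Pou5f1 and Zfp42 hold 17 and 14 of the 60 mESC-only hotspots, whereas all 4 at Klf4 were open in all 20 sets.

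The mESC-only hotspots of these loci included strong ones. Over all mESC hotspots, the mESC-only share dropped with the score, from 49.9% at a score below 2 to 8.56% at 10 or more. At the pluripotency loci it went from 66.7% (16 of 24) to 39.2% (20 of 51) for scores of 2 to 5, 40.6% (13 of 32) for 5 to 10, and 45.8% (11 of 24) at 10 or more. These 11 strong mESC-only hotspots were 6 at Pou5f1, 2 in the Dppa3 window and 1 each at Sox2, Esrrb and Zfp42. Counting also strong hotspots that reached 1 or 2 adult sets, 18 of 24 (75%) were open in at most 2 of 20 sets, against 11.8% of all strong mESC hotspots.

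**Figure D2:**
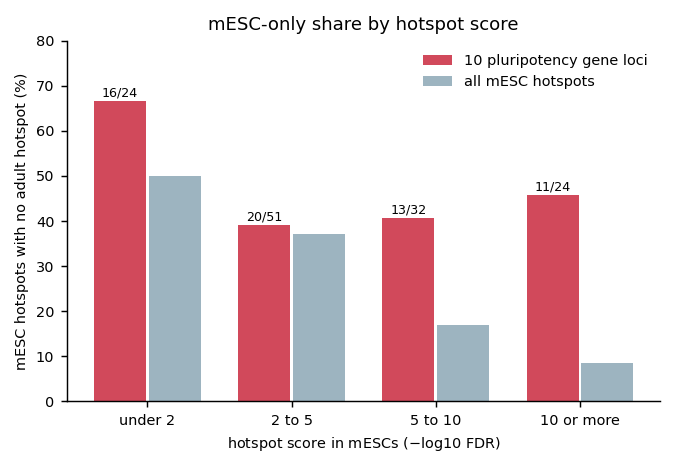
Share of mESC hotspots with no adult hotspot (y axis, %) in 4 ranges of the mESC hotspot score (x axis, −log10 FDR) for the 10 loci (red, with counts above the bars) and for all mESC hotspots (grey). Among hotspots scoring 10 or more the share was 45.8% at the 10 loci and 8.56% over all mESC hotspots.

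Pou5f1 (ENSMUSG00000024406, chr17:35506018-35510772, plus strand, mm10), which encodes the central pluripotency factor OCT4, had a long cluster of hotspots upstream. From −18.7 kb to the start, 18 hotspots covered 9062 bp of intergenic sequence and first exon, and 17 of them were mESC only. The broadest, at −15.5 kb (chr17:35489492-35491634), spanned 2143 bp with a score of 38.97. The strongest, at −3.8 kb (chr17:35501375-35503050), spanned 1676 bp with a score of 60.95, at the 99.6 percentile of all mESC hotspots. Between them and the gene lay further mESC-only hotspots at −6.6, −6.2, −5.0 and −1.9 kb, with scores of 6.99, 11.54, 17.2 and 11.04. The known proximal and distal enhancers of Pou5f1 lie within the first few kilobases upstream of the gene. The single exception in the cluster, at −17.1 kb, met a weak hotspot in the livers of B6x129 and B6xC3H, with scores of 2.73 and 1.73 there against 12.6 in mESCs.

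The other side of the gene was unlike the upstream side. The hotspot at +3.5 kb, over an exon of Pou5f1 and an intron of Gm19553, overlapped CTCF and was open in 1 liver, 4 kidney, 5 lung and 5 B cell sets, with adult scores up to 30.06 in B6xCAST B cells and only 2.43 in mESCs. A CTCF-bound hotspot at +8.1 kb in an intron of Tcf19, and the shared promoter of Tcf19 and Cchcr1 further downstream, were open in all 20 sets. Among adult-only sites, meaning those without an mESC DNase-seq hotspot, 1 at +2.4 kb (chr17:35508363-35508570) was open in all 5 livers and in no other adult set. It did overlap a CTCF hotspot of mESCs.

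The hotspot at the Pou5f1 start itself (chr17:35505867-35506104, score 3.99) was mESC only. Its promoter is shown because the hotspot over the start met no adult hotspot. A hotspot of 1 lung set (chr17:35505648-35505825) lay just upstream and reached into the first bases of the printed stretch. Here and below, sequences are from the GRCm38 (mm10) assembly, capitals mark matches to 6 consensus motifs, and promoters run from 250 bases before to 50 after the start in RefSeq. The match, in capitals, is to the KLF motif (GGGNGTGG), read on the opposite strand. Nanog and Zfp42 promoters are printed beside it for comparison. The capitals in the Nanog promoter mark an OCT4-SOX2 composite element followed by KLF matches, and those in the Zfp42 promoter an octamer (ATGCAAAT, the binding sequence of OCT4 and its relatives, read on the opposite strand) and a KLF match.
Pou5f1, chr17:35505782-35506081, plus strand: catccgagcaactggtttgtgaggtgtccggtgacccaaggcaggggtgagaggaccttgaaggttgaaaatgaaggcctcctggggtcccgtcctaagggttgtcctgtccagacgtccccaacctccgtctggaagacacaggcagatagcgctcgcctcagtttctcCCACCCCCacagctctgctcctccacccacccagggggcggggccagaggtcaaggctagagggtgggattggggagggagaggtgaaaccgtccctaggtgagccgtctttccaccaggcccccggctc
Nanog, chr6:122707239-122707538, plus strand: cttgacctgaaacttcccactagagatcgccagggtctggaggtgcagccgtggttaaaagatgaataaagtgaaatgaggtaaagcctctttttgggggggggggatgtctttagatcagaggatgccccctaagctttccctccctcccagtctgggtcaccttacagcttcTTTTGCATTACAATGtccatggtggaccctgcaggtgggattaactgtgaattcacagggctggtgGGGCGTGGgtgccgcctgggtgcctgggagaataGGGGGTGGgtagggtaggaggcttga
Zfp42, chr8:43306960-43307259, minus strand: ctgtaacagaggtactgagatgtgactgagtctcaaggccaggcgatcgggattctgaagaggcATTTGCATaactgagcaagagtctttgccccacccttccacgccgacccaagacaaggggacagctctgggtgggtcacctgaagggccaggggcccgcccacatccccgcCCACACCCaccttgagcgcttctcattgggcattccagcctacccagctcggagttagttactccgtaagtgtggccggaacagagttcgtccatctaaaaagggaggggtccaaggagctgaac
The composite element is rare at this stringency. It was found in 6 of 32851 RefSeq promoters (0.0183%), and the octamer in 1.74% and the KLF motif in 17.6% of them.

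Nanog (chr6:122707489-122714633, plus strand) encodes the homeodomain factor that gives the naive state its stability. Most of the promoter stretch above lay in an mESC-only hotspot (chr6:122707290-122707620, score 5.73) that holds the composite element. Just upstream, a separate hotspot at −0.3 kb (chr6:122707079-122707283) was open in 4 of 5 lungs, with scores of 8.93 in B6x129, 1.74 in B6xC3H, 1.64 in B6xCAST and 2.14 in B6xSPRET, and in no other adult set. At −4.7 kb, near the known upstream enhancer of Nanog, an 803 bp hotspot (chr6:122702405-122703207) with a score of 6.58 in mESCs was open in every solid tissue set and in none of the 5 B cell sets. Its adult scores were 29.85 to 85.83 in lung, 28.7 to 70.17 in kidney and 2.17 to 13.11 in liver. Thus lung and kidney scored above the mESC set at this site in all 10 sets, and liver in 2 (B6x129 and B6xSPRET), while scores of different sets also rest on their depth. The CTCF hotspot at +12.7 kb was open in all 20 sets, and the remaining sites at −17.2 and +8.6 kb were mESC only.

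Zfp42 (chr8:43295063-43306980, minus strand), which encodes the zinc finger protein REX1, was the other densely open locus. From −4.2 to +10.4 kb, 21 hotspots covered 10782 bp, reaching over nearly the whole gene, and 14 were mESC only. The promoter hotspot (chr8:43306449-43308028) spanned 1580 bp with a score of 49.22, and met weak hotspots in 2 lungs, with scores of 3.12 in B6x129 and 4.11 in B6xCAST. The intronic hotspot at +1.2 kb (1413 bp, score 29.68), which overlapped CTCF, met 1 kidney (B6xSPRET, 2.16) and 1 lung set (B6xCAST, 2.95). Other contacts with adult sets within the gene were of the same kind: at +4.1, +6.6 and +7.3 kb a single B cell set, at +8.5 kb a single kidney set, and at +10.4 kb 1 kidney and 2 lung sets, with scores of at most 4.18. No liver set had a hotspot over any of the 22 mESC hotspots. The only site open in most sets of a tissue lay outside the cluster, at −13.9 kb, in 4 of 5 lungs with a score of 32.01 in B6xCAST and 2.42 to 4.12 in the other 3.

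**Figure D3:**
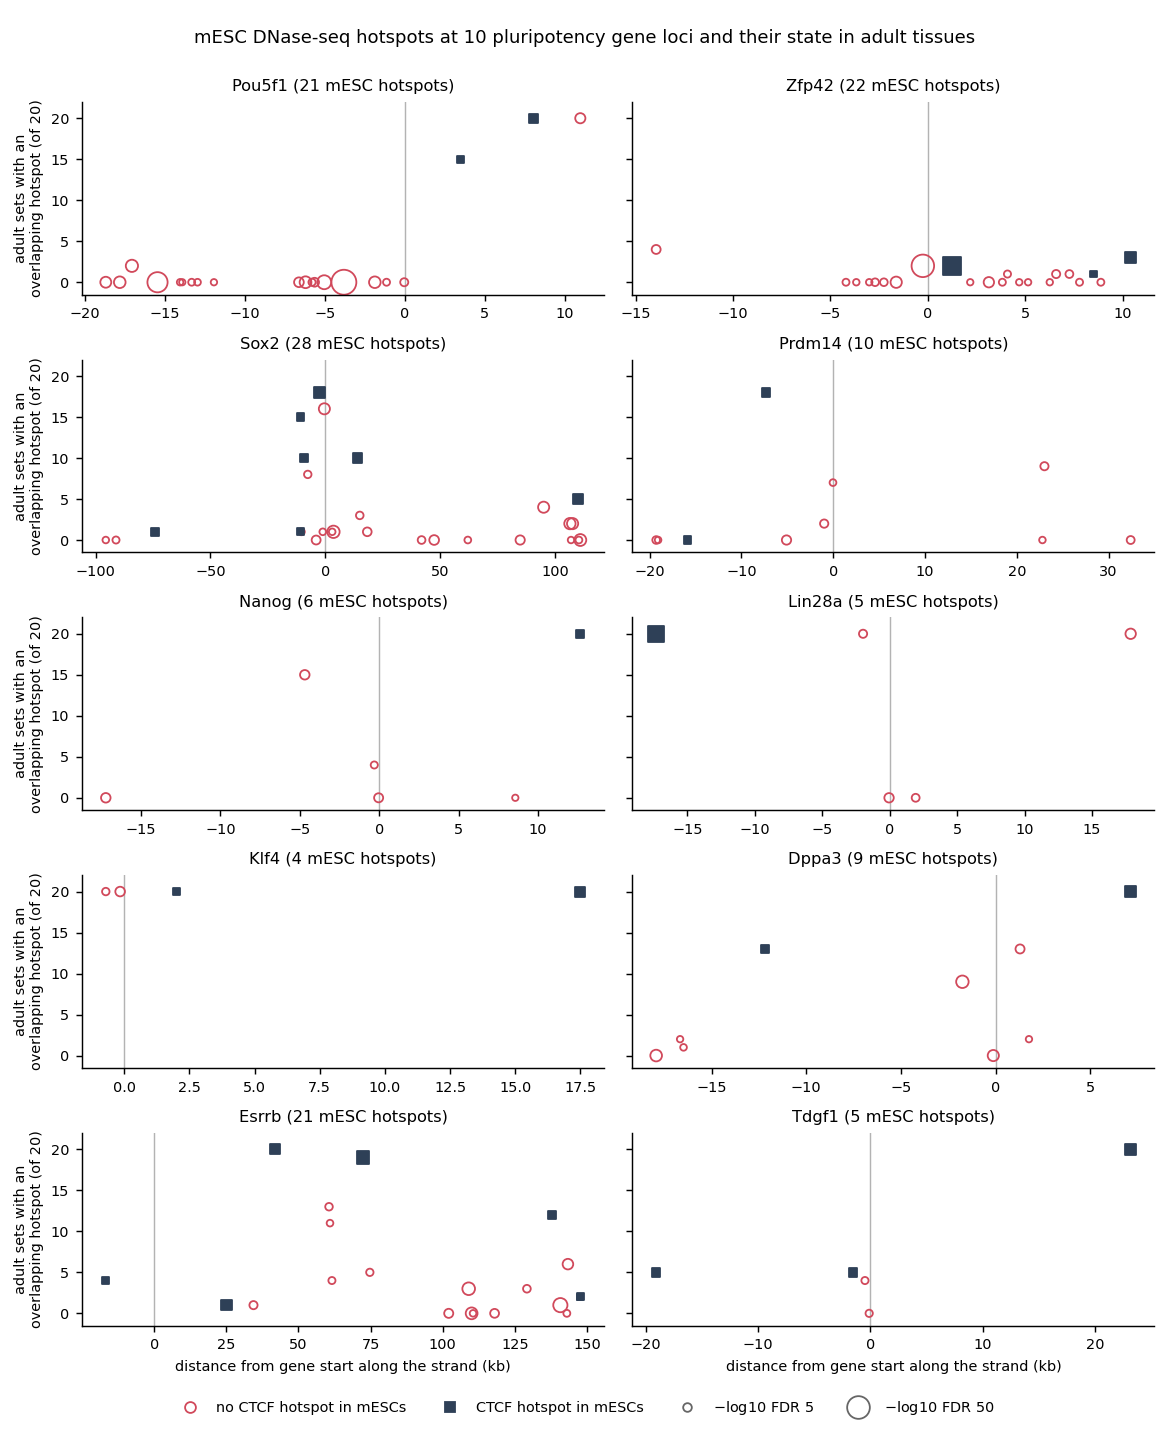
Each mESC DNase-seq hotspot at its distance from the gene start along the strand (x axis, kb) and the number of the 20 adult sets with an overlapping hotspot (y axis), 1 panel per gene. Squares overlapped a CTCF hotspot in mESCs, circles did not, and the area of a symbol grows with the mESC score. Pou5f1 and Zfp42 show rows of circles at 0 to 2 sets within and upstream of the genes, apart from the Zfp42 site at −13.9 kb in 4 sets, and over all loci the squares have a median of 11 sets and the circles of 0.

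Sox2 (chr3:34650405-34652461, plus strand), the partner of OCT4 and also a factor of neural and airway progenitors, lies within the long noncoding gene Sox2ot. Near the gene, hotspots largely persisted. The promoter site at −0.4 kb (chr3:34649742-34650191, score 9.93) was open in all 5 livers, kidneys and lungs and 1 B cell set, and the CTCF-bound site at −2.5 kb in all 15 solid tissue sets and 3 B cell sets. Of the 9 hotspots from −11.0 to −0.4 kb, only that at −4.0 kb was mESC only. Several others persisted in a single adult set. Those at −10.7 and −10.4 kb met B6x129 liver alone, and that at −1.1 kb met B6xCAST lung alone, as did the site at +3.0 kb. The site at −11.0 kb was strongest in liver, with scores of 81.42 in B6x129 and 10.88 to 28.18 in the others, against 2.45 in mESCs. The site at +3.5 kb (chr3:34653619-34654209), the strongest of the locus with a score of 12.91, met a single lung set (B6xCAST, 2.98).

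The distal downstream region of Sox2, known to hold its embryonic stem cell enhancer, had 7 hotspots from +95.0 to +110.9 kb covering 3819 bp. Of these 3, the 735 bp site at +110.9 kb (chr3:34760938-34761672, score 11.83) among them, had no adult hotspot, and none of the 7 was open in a B cell set. The other 4 were each open in lung: at +95.0 kb in 4 of 5 lungs with scores of 2.16 to 4.03 (mESC 10), at +106.4 kb in 1 liver and 1 lung set, at +107.5 kb in 1 kidney and 1 lung set, and at +109.8 kb, the CTCF-bound site, in 3 livers and 2 lungs. Adult scores there were below the mESC score except at +109.8 kb, where the liver of B6x129 had 19.87 and mESCs 8.31. Between and around these sites lay adult-only regions: at +97.4 kb (chr3:34747243-34748356) in all 5 livers and 5 lungs, and at +103.2 kb in all 5 livers, 5 lungs and 4 kidneys.

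Stretches of this region are shown because they carry matches, in capitals, to the ESRRB motif (TCAAGGTCA, or its reverse complement), the STAT motif (TTCCNGGAA, bound by the LIF effector STAT3) and the KLF motif. All are on the plus strand.
Sox2 +95.0 kb, chr3:34745213-34745311: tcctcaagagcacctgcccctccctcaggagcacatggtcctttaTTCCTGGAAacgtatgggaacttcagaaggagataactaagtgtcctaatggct
Sox2 +106.4 kb, chr3:34756541-34756639: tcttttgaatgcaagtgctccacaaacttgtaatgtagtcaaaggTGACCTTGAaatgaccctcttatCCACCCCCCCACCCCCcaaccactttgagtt
Sox2 +107.5 kb, chr3:34757915-34758013: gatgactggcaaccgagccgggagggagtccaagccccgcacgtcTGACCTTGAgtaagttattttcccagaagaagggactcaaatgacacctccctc
Sox2 +110.3 kb, chr3:34760529-34760627: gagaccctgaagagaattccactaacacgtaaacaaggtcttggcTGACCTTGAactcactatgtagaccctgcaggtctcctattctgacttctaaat

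Esrrb (chr12:86361117-86521628, plus strand), an orphan nuclear receptor gene of naive pluripotency that some adult tissues also use, spread 20 of its 21 hotspots over its introns and internal starts. None was at the 5′-most annotated start. The internal start at +60.6 and +60.9 kb was open in all 5 livers (scores 39.39 to 94.9) and all 5 kidneys (27.83 to 46.17), and at +60.6 kb also in 3 lungs, with a score of 3.19 in mESCs. The internal start at +109.0 to +110.0 kb was the reverse. Its 905 bp hotspot at +110.0 kb (chr12:86470663-86471567, score 11.55) was mESC only, and the neighbour at +109.0 kb (score 13.66) met 1 liver, 1 kidney and 1 lung set with scores of at most 4.97. The strongest Esrrb site, at +140.7 kb in an intron (chr12:86501470-86502256, score 17.96), met a single kidney set (B6xSPRET, 4.77). The site at +74.7 kb was open in all 5 kidneys, with scores of 3.74 to 7.58, and in no liver, lung or B cell set. Besides this, 8 adult-only regions of the Esrrb window were open in all 5 kidneys and in no other set, of 12 such regions over all 10 windows. These 12 were 5.33% of the adult-only regions there, against 2.1% of adult-only regions of the genome.

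The mESC-only or nearly mESC-only introns of Esrrb are shown for their octamers at +110.0 and +118.0 kb and for matches to the binding motif of the ESRRB protein itself at +140.7 kb, in capitals, all on the plus strand. The Dppa3 site at −1.8 kb, which was open in liver and kidney as well, is printed with them for its pair of octamers. Not printed are further ESRRB matches at Esrrb, in the persisting hotspots at +25.1 kb (1 adult set) and +143.4 kb (6 adult sets).
Esrrb +110.0 kb, chr12:86471001-86471098: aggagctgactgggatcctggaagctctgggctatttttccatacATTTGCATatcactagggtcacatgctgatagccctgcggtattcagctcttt
Esrrb +118.0 kb, chr12:86478995-86479092: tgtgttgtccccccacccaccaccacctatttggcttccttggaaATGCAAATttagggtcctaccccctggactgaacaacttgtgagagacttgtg
Esrrb +140.7 kb, chr12:86501672-86501770: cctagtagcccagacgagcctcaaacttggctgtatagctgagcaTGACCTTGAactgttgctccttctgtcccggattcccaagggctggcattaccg
Esrrb +140.7 kb, chr12:86502014-86502112: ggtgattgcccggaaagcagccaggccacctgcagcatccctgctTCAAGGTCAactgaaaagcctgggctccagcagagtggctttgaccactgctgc
Dppa3 −1.8 kb, chr6:122624592-122624689: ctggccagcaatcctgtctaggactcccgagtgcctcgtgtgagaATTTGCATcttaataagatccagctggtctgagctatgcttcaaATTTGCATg

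Dppa3 (chr6:122626410-122630272, plus strand), whose product STELLA protects maternal methylation in the early embryo, showed both kinds of site within 2 kb. Its start (chr6:122626115-122626458, score 10.09) was mESC only. At −1.8 kb, a 685 bp hotspot (chr6:122624313-122624997) scored 13.24 in mESCs, reached the cap of 100 in all 5 livers and 43.5 to 83.57 in 4 kidneys, and was absent in lung and B cells. A site at +1.3 kb followed it in liver (13.15 to 33.02) and was weaker elsewhere, in 3 kidney, 4 lung and 1 B cell sets with scores of at most 7.02. The Dppa3 window also held the gene Gdf3, a TGF-β family ligand expressed in pluripotent cells: a 1532 bp hotspot over it (chr6:122607716-122609247, score 11.24) was mESC only, and 2 small neighbours met 1 or 2 adult sets. The CTCF sites at −12.2 and +7.1 kb were open in 13 and 20 sets.

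Tdgf1 (chr9:110939603-110946158, minus strand), the NODAL co-receptor CRIPTO, had an mESC-only start (chr9:110946077-110946418, score 2.77). A 1361 bp hotspot at −1.5 kb (chr9:110947023-110948383), which overlapped CTCF, was open in all 5 livers with scores of 41.68 in B6xPWK, 37.65 in B6xCAST, 11.42 in B6x129, 3.47 in B6xSPRET and 2.72 in B6xC3H, and in no other adult set. The site at −19.1 kb in an intron of Lrrc2 was open in 4 of 5 B cell sets (1.99 to 38.05) and 1 lung set. Lin28a (chr4:134003330-134018841, minus strand), whose product blocks let-7 microRNA maturation, had an mESC-only start (chr4:134018682-134019095, score 6.38) and an mESC-only intronic site at +1.9 kb, while its 3 other sites, at −17.3 kb (CTCF, score 26.34), −2.0 kb and the Dhdds promoter at +17.9 kb, were open in all 20 sets.

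Prdm14 (chr1:13113457-13127163, minus strand), a repressor of differentiation and of DNA methyltransferases, had weak sites throughout, none scoring above 6.2. Its start met 2 liver, 1 kidney, 1 lung and 3 B cell sets, with a score of 26.11 in B6xCAST B cells against 2.05 in mESCs. The site at −1.0 kb was open in B cells of B6x129 (5.89) and B6xCAST (27.79) only. The same 2 hybrids had the highest B cell scores at the start, where B6x129 had 5.9 and B6xC3H 2.56. Klf4 (chr4:55527143-55532466, minus strand), a zinc finger factor of the circuit that epithelia also express, was the opposite of Pou5f1: all 4 hotspots, at −0.7, −0.2, +2.0 and +17.5 kb, were open in all 20 sets. Its promoter is printed beside those above, and none of the 6 motifs was found in the printed stretch. The Klf4 hotspot at −0.7 kb did hold KLF matches. Of the mESC-only start hotspots, those of Pou5f1, Nanog and Tdgf1 held a match, and those of Lin28a and Dppa3 held none. Lack of a match therefore does not set Klf4 apart.
Klf4, chr4:55532426-55532725, minus strand: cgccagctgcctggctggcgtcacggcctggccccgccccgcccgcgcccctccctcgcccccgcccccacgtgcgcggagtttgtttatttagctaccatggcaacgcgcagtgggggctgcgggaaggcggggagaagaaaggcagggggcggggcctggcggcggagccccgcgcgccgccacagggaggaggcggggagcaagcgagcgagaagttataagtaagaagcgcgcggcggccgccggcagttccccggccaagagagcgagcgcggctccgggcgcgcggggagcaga

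Summed over the starts, 5 of the 10 genes had an mESC-only hotspot over the annotated start: Pou5f1, Nanog, Lin28a, Dppa3 and Tdgf1. They were 5 of the 8 with any mESC hotspot over the start, and over all protein-coding genes with such a hotspot the share was 3.14%. Within 1 kb of any protein-coding transcript start, all 10 had an mESC hotspot, and all 10 also had a hotspot in at least 1 adult set, from 2 sets at Zfp42 and 4 at Nanog to 19 at Pou5f1, where starts within the gene near the +3.5 kb site were counted, and 20 at Klf4. Over all genes with an mESC promoter hotspot, 1.45% had no adult hotspot within 1 kb. Within 250 bp, where all 10 again had an mESC hotspot, 2 (Lin28a and Dppa3) had no adult hotspot, against 3.36% of all genes with an mESC hotspot at this distance. The other genes with an mESC-only start did have adult hotspots within 250 bp of a transcript start: Pou5f1 in 6 sets, Nanog in 2 and Tdgf1 in 10.

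Overlap with CTCF, the insulator protein that anchors chromatin loops, went with persistence. Of the 131 hotspots 30 (22.9%) overlapped a CTCF hotspot of mESCs (32.8% of all mESC hotspots did). Just 1 of these 30 was mESC only (3.33%), a small site at −15.9 kb of Prdm14, against 59 of 101 (58.4%) without CTCF. The same split held over all mESC hotspots, with 6.32% mESC only with CTCF and 42.3% without. Sites with CTCF were open in a median of 11 adult sets, and those without in a median of 0. Of the 13 sites open in all 20 sets, 8 overlapped CTCF, 4 were promoters without it, and the other was the Lin28a site at −2.0 kb. By comparison 24.1% of all mESC hotspots, but 9.92% of those at the pluripotency loci, were open in all 20 sets.

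The 4 persisting sites with a match to the CTCF core motif in these windows, all CTCF-bound, are shown from the plus strand with the match in capitals. They were open in 18 (Sox2) or 20 adult sets.
Sox2 −2.5 kb, chr3:34647842-34647943: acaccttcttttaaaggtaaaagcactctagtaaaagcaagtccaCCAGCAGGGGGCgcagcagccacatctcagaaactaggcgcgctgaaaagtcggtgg
Esrrb +41.9 kb, chr12:86402882-86402983: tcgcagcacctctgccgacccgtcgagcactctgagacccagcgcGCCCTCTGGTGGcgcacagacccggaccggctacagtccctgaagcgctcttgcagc
Lin28a −17.3 kb, chr4:134036093-134036194: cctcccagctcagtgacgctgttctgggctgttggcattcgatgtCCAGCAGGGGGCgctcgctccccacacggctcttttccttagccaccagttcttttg
Tdgf1 +23.2 kb, chr9:110922904-110923005: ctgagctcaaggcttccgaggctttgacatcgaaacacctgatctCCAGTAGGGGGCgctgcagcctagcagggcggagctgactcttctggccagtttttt
In windows of 300 bp around the hotspot centres, this motif was in 4 of 71 persisting and 0 of 60 mESC-only windows (7.61% and 0.316% over all mESC hotspots). The octamer was in 4 of 60 mESC-only (6.67%) and 3 of 71 persisting windows (4.23%), against 3.86% and 2.41% over all mESC hotspots. The ESRRB motif was in 1 of 60 and 4 of 71 windows (1.96% and 1.2% over all mESC hotspots), the STAT motif in 2 of 60 and 1 of 71 (1.1% and 1.23%), and the composite element in the Nanog window alone (0.137% of all mESC-only windows). The KLF motif was as frequent in mESC-only (15%) as in persisting windows (16.9%) and over all mESC hotspots (16.3%). With counts this small the loci cannot be ranked by motif.

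The tissues differed in how many of the 131 hotspots they kept. At least 1 set of lung overlapped 51 (38.9%), of liver 47 (35.9%), of kidney 40 (30.5%) and of B cells 34 (26%). The corresponding shares of all mESC hotspots were 57.6%, 56.6%, 57.1% and 45.7%. Set by set, liver overlapped 25.5% ± 4.93 (SD, n = 5 hybrids), kidney 23.3% ± 2.19, lung 23.8% ± 7.38 and B cells 17.1% ± 2.31. Lung ranged from 24 hotspots in B6xC3H and B6xPWK to 46 in B6xCAST. Liver ranged from 28 in B6xSPRET to 44 in B6x129, kidney from 28 to 35 and B cells from 19 to 26. The highest lung and liver sets were also those of their tissue covering the most bases, and the part of set size in these counts was not tested.

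**Figure D4:**
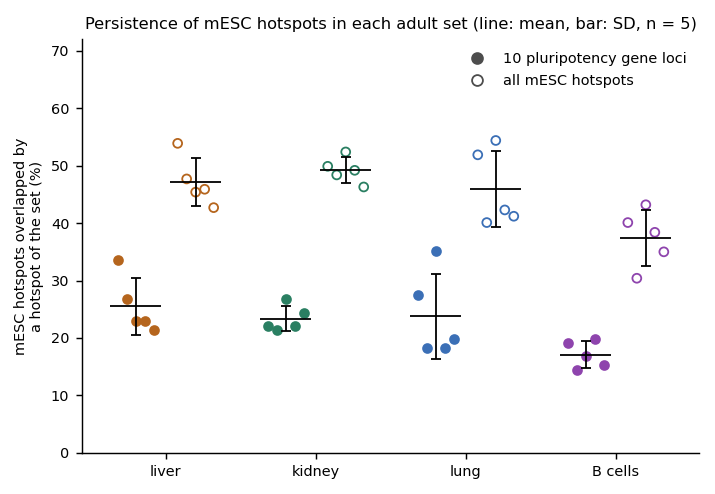
Share of mESC hotspots overlapped by a hotspot of each adult set (y axis, %) for the 10 loci (filled) and for all mESC hotspots (open), by tissue, with the mean (line) and SD (bar) of the 5 hybrids. The loci lie below the genome in every set, at 14.5% to 35.1% against 30.4% to 54.4%.

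Of the 131 hotspots, 24 (18.3%) were open in all 4 tissues, 15 of them with CTCF, against 39.2% of all mESC hotspots. Lung alone kept 10 (7.63%, against 3.55% of all). Of these the Nanog −0.3 kb, Zfp42 −13.9 kb and Sox2 +95.0 kb sites were each open in 4 lungs. The Zfp42 −0.3 kb site was open in 2, and each of the rest in a single lung set. Liver alone kept 6 (4.58%, against 3.18%), B cells alone 5 (3.82%, against 1.62%) and kidney alone 4 (3.05%, against 2.84%). Among the B cell sites, those at +6.6 and +7.3 kb of Zfp42 met the same small hotspot of B6xC3H. Liver, kidney or lung without B cells accounted for 37 sites (28.2%, against 23.8%). In just 1 of 20 sets, 15 sites persisted (11.5%, against 5.38% of all), and 5 of these were in B6xCAST lung. Without B6xCAST sets, lung kept 28.2% of the hotspots.

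The share of each window covered by hotspots was then compared between tissues across all genes, 1 tissue against the mean of the other 3, by an exact two-sided permutation test of tissue labels within hybrids (all choices of 1 set per hybrid, smallest p 0.000977) with Benjamini-Hochberg adjustment over 21468 windows. In liver 37.7% of windows were called higher and 1.48% lower, in kidney 6.31% and 0.657%, in B cells 4.9% and 23.4%, and in lung 0.0% and 0.0%. Before adjustment, 1641 windows were higher and 1870 lower in lung at p under 0.05, and limma called 1730 higher and 4406 lower. When covered bases were taken instead as a share of all bases of a set, the calls became 15.1% higher and 11.1% lower in liver, 7.62% and 2.8% in kidney, 6.02% and 3.01% in lung, and 36% and 15.1% in B cells. On that scale 3 of the 10 windows were higher and 3 lower in B cells, 1 higher and 2 lower in liver, 1 higher in kidney and 2 higher in lung.

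In B cells, 4 of 10 windows were covered less than in the other tissues, and none more. Nanog was covered at 0.775% ± 0.165 (SD, n = 5), against a mean of 3.48% in the 15 other sets (adjusted p = 0.00826). The 5 B cell values of Nanog ran from 0.617% to 0.955% and lay below all 15 others, the lowest of which was 1.16%. Sox2 had 0.707% in B6xPWK, 0.348% in B6x129, 0.191% in B6xC3H, 0.092% in B6xCAST and 0.0813% in B6xSPRET, against a mean of 2.03% (adjusted p = 0.0214), again without overlap, and with any hybrid left out the adjusted p passed 0.05 while the difference stayed between −1.94 and −1.54 percentage points (−1.75 with all 5). Esrrb was covered at 0.684% ± 0.266 against 3.33% (adjusted p = 0.0175) and Tdgf1 at 2.05% ± 1.31 against 5.55% (adjusted p = 0.0175), both overlapping other tissues. The call for Tdgf1 was lost under 7 of 12 alternatives and that for Esrrb under 5, always with the same direction. The 4 of 10 windows compare with 23.4% of all windows called lower in B cells, whose sets were the smallest.

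In liver, Dppa3 was higher and Klf4 lower. The Dppa3 window was covered at 14.1% in B6x129, 11% in B6xSPRET, 10.3% in B6xCAST, 9.71% in B6xC3H and 9.46% in B6xPWK livers, above every one of the other 15 sets, whose highest value was 6.76% (mean 3.25%, adjusted p = 0.00473). Klf4 was covered at 8.66% ± 3.37 in liver against 12.3% elsewhere (adjusted p = 0.0478), with liver values from 5.28% to 13.9% overlapping the other tissues. This call was lost without B6xCAST, B6xPWK or B6xSPRET. In kidney, Esrrb was covered at 4.82% ± 0.672 against 1.95% (adjusted p = 0.0211), with kidney values of 3.96% to 5.51% and the largest liver value at 5.46%. Without any 1 hybrid, no window of any gene passed as higher in kidney, where 4 hybrids allow no p below 0.00391, and the difference for Esrrb stayed between 2.69 and 3.06 percentage points (2.86 with all 5). In lung, Zfp42 reached 1.02% ± 0.649 against 0.142% elsewhere (p = 0.000977 by the exact permutation test, adjusted p = 0.0558), which did not pass here but passed under 4 alternatives.

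**Figure D5:**
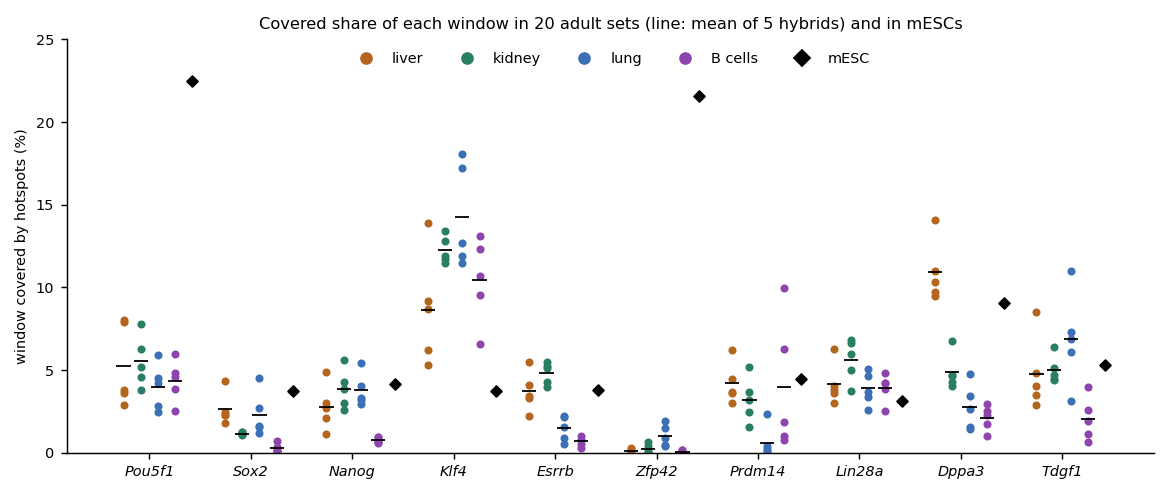
Share of each gene's window covered by hotspots (y axis, %) in the 5 sets of each adult tissue (points, with their mean as a line) and in mESCs (diamond). mESCs covered 22.5% of the Pou5f1 window and 21.6% of the Zfp42 window, where no adult set exceeded 8.06% and 1.9%, whereas at Klf4 all 20 adult sets exceeded the 3.72% of mESCs.

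Adult sets also had hotspots where no DNase-seq hotspot was called in mESCs. Some of these regions, such as those at +2.4 kb of Pou5f1 and +1.6 kb of Nanog, did overlap a CTCF hotspot of mESCs. In the 10 windows the 20 sets merged into 291 regions, of which 225 (77.3%) had no mESC DNase-seq hotspot, against 90.7% of all merged regions. Of the 225, 133 (59.1%) were open in at least 2 sets, against 54.5% of all regions without an mESC hotspot. Esrrb and Sox2, the longest windows, had 64 each, and Zfp42 had 4. All 5 kidney sets shared 27 of the 225 regions (12%, against 11.2% of all such regions), all 5 liver sets 26 (11.6%, against 12%), all 5 lung sets 11 (4.89%, against 8.04%) and all 5 B cell sets 1 (0.444%, against 3.05%).

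A list of 30 other pluripotency genes, fixed by name but chosen with earlier results of these data known, was set beside the members. It is not fully separate from them: Gdf3 is on the list and shares the 2 mESC-only hotspots (1876 bp) of the Dppa3 window. Over their 250 mESC hotspots within 20 kb, 84 (33.6%) were mESC only. Among the 25 genes with at least 5 hotspots the median gene share was 20%, against 16.7% for the 12666 protein-coding genes of that kind and 40% for the 9 members. The member left out by this minimum was Klf4, with 4 hotspots and the lowest share of all members, 0%. The highest shares were at Fgf4, a growth factor gene of the inner cell mass (14 of 15, 93.3%), Dppa5a (8 of 11, 72.7%) and Fbxo15, a classic OCT4 target (7 of 11, 63.6%). The lowest were at Gbx2, Klf2 and Stat3, with 0 of 6 each. By bases in mESC-only hotspots, Pou5f1 ranked 30 (8589 bp) and Zfp42 219 (4108 bp) of 21728 genes, at the 99.9 and 99 percentiles. Genes outside both lists with the most such bases were Gm20388 (39751 bp in a window of 4470 kb), Clvs2 (32086 bp), Sfi1 (21900 bp), Drg1 (17968 bp) and Mid1 (16541 bp).

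RNA-seq was given for 17 adult samples in RSEM expected counts. The tables summed to 283725 to 809337 counts per sample. With these sums taken as the depth, a count of 0 allows up to 3.71 to 10.6 CPM (3 counts, counting error only). Sox2, Esrrb, Zfp42, Prdm14, Lin28a, Dppa3 and Tdgf1 had 0 counts in all 17 samples. Pou5f1 had 1 count in 1 sample (B cells of B6xC3H), Nanog 8 counts over 4 samples with at most 5 in one, and Klf4 14 counts over 8 samples with at most 2. None of the 10 genes passed the expression filter, so none was tested. These tables were shallow for genes of every kind: Alb, the main liver transcript, had 95 to 767 counts in the 4 liver samples, and Actb 1 to 99 over all samples. The study lists far more mapped reads for these RNA libraries than these sums, and the reason for the gap was not examined. With such low totals a count of 0 does not show that a gene was silent.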

How the data were processed

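Hotspot sets of DNase-seq (20 adult combinations of hybrid and tissue, and mESCs) and of mESC CTCF ChIP-seq were used, with RNA-seq tables of 17 adult samples. The deposited hotspot files, called by the authors with hotspot2 on mm10 at an FDR of 5%, give each hotspot the −log10 of its FDR. The adult files pool replicates. The RNA tables hold the expected counts that the authors obtained with RSEM, and the submitters' processing notes also name Trimmomatic, BWA and STAR. The hotspot files give no read depth, and the study's read totals were not used here. By the study's methods, all DNase-seq data of a strain and cell type were combined before hotspots were called. The labels and the study's main text name the mESCs B6xCAST while its table of samples names B6xC3H, and the labels were followed. The same conflict between label and table concerns 1 B cell RNA sample. The study's RNA table also lists as B6xC3H the published data that its methods name B6xCAST.

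Gene bodies and transcript starts were those of GENCODE vM21. Hotspots were intersected with a minimum overlap of 1 bp (Python 3.11.15, pandas 2.3.3, numpy 2.4.6), and distances run from the gene start to the hotspot centre along the strand. The covered share of each window was compared by the exact permutation test described above. That test and the RNA script were tested on simulated data with known changes. After rounding, expected counts went into edgeR 4.0.16 (quasi-likelihood, TMM, filterByExpr) with DESeq2 1.42.0 as an alternative, and limma 3.58.1 served as an alternative for covered shares. Promoter sequences came from the RefSeq promoter table of GRCm38, which matched 8 of the 10 genes, and other sequences from the GRCm38 genome. Motifs were searched as exact consensus matches on both strands. RNA replicates are the labels' separate samples, so p-values measure only the spread between them.

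The members and lists were chosen with earlier results of these data known. Genes named were the 10 members, genes whose start lay within 1 kb of an mESC hotspot in a member's window, the 3 highest and 3 lowest of the other pluripotency genes by mESC-only share among those with at least 5 hotspots, and the 5 genes outside these lists with the most mESC-only bases. Marker genes were named from fixed lists, and Sox2ot, Gm19553 and Lrrc2 only to place a site. Alternatives covered the overlap, the threshold, the window, each hybrid and locus left out, the scaling and the tool.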

Additional observations from a re-analysis of the deposited data

Results flagged for a closer look

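Among 40 groups of 5 sets (10 windows in 4 tissues), 3 held a set whose covered share lay far from the other 4 by Dixon's criterion, where chance gives about 1 group in 20. The Sox2 window was covered at 4.35% in B6x129 liver and at 1.79% to 2.45% in the other livers. Prdm14 was covered at 2.35% in B6xCAST lung and at 0.0% to 0.391% in the other lungs. Dppa3 was covered at 6.76% in B6xCAST kidney and at 4.01% to 4.7% in the other kidneys. B6x129 liver and B6xCAST lung were also the sets of their tissues that covered the most bases, and the part of set size was not tested.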

How the results depend on the processing

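Of 212 alternatives for the main results 162 left the value in place and 50 moved it, and of 480 for single genes 431 kept the call or its absence, 20 gained one, 27 lost one and 2 reversed. With covered bases taken per Mb that a set covers, the B cell difference went from −0.585 percentage points to 13.4 bases per Mb at Pou5f1 (adjusted p = 0.00581 by the exact permutation test) and from −0.635 percentage points to 14.8 bases per Mb at Lin28a (adjusted p = 0.0146). Both were called only on the second scale. In all 26 single-gene differences changed sign, and the other 24 were not called before or after. The mESC-only share of 45.8% was 61.1% when at least 50% of a hotspot had to be covered, 82.4% (14 of 17) among the highest-scoring hotspots, 61.8% when at least 2 hybrids of a tissue were required and 56.5% with B6xCAST sets alone, where all mESC hotspots had 37.5%, 15%, 37.4% and 36.0%. It was 46.6% to 51.1% with each hybrid left out. Without single loci, an alternative chosen after seeing the data, it was 39.1% to 50%, and 33% without Pou5f1 and Zfp42. For the other pluripotency genes those settings gave 42%, 22.9%, 42.8% and 40.8%, and 33.6% to 37.6% without each hybrid. Persistence with 50% overlap moved to 24.4% in lung. With the highest-scoring hotspots it was 17.6% in liver and kidney and 11.8% in lung and B cells, and the CTCF share 11.8%. With 2 hybrids required it was 25.2% in lung and 17.6% in B cells, and with B6xCAST alone 22.9% in liver and 16.8% in B cells. Without each hybrid it ran from 29% to 35.9% in liver, 27.5% to 30.5% in kidney, 28.2% to 38.9% in lung and 22.1% to 26% in B cells. Within 250 bp of a start, 2 members had no adult hotspot, and in 500 bp windows 30.5% held the KLF motif.

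Among windows called by covered share, the highest-scoring hotspots gave 3 members higher in liver, 0 in kidney, 1 in lung and 2 lower in B cells. Exchanging labels without the hybrid block gave 0 lower in liver and 1 higher in lung. As a share of each set's bases, 2 were lower in liver, 2 higher in lung and 3 higher in B cells. Without other genes' promoters 1 was higher in lung. limma gave 3 higher in liver, 2 in kidney, 3 in lung and 3 lower in lung. Leaving out each hybrid gave 1 to 2 higher and 0 to 1 lower in liver, 0 higher in kidney and 1 to 2 lower in B cells, and 0 calls in lung. The cause of these shifts was not tested. The Dppa3 call in liver and the Nanog call in B cells held in all 12 alternatives, Klf4 in 8, Esrrb and Sox2 in B cells in 7 each, Esrrb in kidney in 6 and Tdgf1 in 5. The RNA tests called 0 members under every alternative: none was tested with edgeR's filter, which left 4479 genes, and without it 3 were tested. The main test of covered shares exchanges tissue labels within hybrids and so keeps the hybrid as a block.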
